A study of Homo sapiens with 6 samples.

Results

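The genes described are 7 core genes of the RAS to ERK signalling cascade: the RAS GTPases NRAS and HRAS, the RAF kinases ARAF and BRAF, the MEK kinases MAP2K1 (MEK1) and MAP2K2 (MEK2), and the ERK kinase MAPK3 (ERK1). They were taken by symbol, as 7 of the 27968 genes in the deposited tables, together with all their isoforms, 16 of 70006. All 7 genes and all 16 isoforms passed the filter on low counts. RNA was sequenced from H23, a human lung adenocarcinoma cell line, 48 hours after transfection with the lipid reagent RNAiMAX. There were 3 independent transfections with a control siRNA and 3 with an siRNA labelled as specific for HOTAIR-N, and the series title speaks of RNAi of HOTAIR, a long non-coding RNA. Both groups are the same line and both received an siRNA, so untransfected cells are not part of the comparison. Since 1 siRNA stands against 1 control siRNA, effects of the lower target RNA and other effects of that siRNA cannot be told apart.

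In the cascade, receptor tyrosine kinases recruit adaptors and exchange factors that load RAS with GTP. GTP-bound RAS activates RAF kinases, which phosphorylate MEK, and MEK phosphorylates ERK, whose targets include kinases and transcription factors of growth control. The cascade is often active in lung adenocarcinoma. Its activity is set mainly by nucleotide exchange and phosphorylation, which RNA levels do not measure.

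The libraries held 32715361 to 36578681 expected counts. The targeted gene HOTAIR was at 4.90 ± 0.669 CPM (counts scaled to library size, SD, n = 3) with control siRNA and at 2.39 ± 0.263 with HOTAIR-N siRNA, a log2 fold change of -1.04 (SE 0.138, edgeR quasi-likelihood test, adjusted p = 1.3e-05). The epithelial keratins KRT8 and KRT18 were at 1505 to 2592 TPM in the group means. EPCAM and CDH1 were at 6.88 to 24.5 TPM and the other keratins KRT19 and KRT7 at 1.31 to 5.29 TPM, the lung transcription factor NKX2-1 was at 1.26 and 2.49 TPM, and the surfactant genes SFTPB and SFTPC reached at most 3 counts in any library. Of the leukocyte genes, PTPRC and CD3E reached at most 1 count and LYZ at most 4, while CD14 was at 2.69 and 2.21 TPM. The endothelial genes reached at most 22 counts, and among the fibroblast genes COL3A1 (0.933 and 0.867 TPM) and LUM (1.41 and 2.66 TPM) were the highest. Control replicate 1 stood apart within its group. The deviation of its log2 CPM from its group's mean correlated across 14826 genes with GC content at r = 0.51. In the other 5 libraries that r was -0.34 to 0.24. Genes are not independent replicates, and this value describes the library. For the members and their isoforms, calls that change without that library are given with and without it, as are counts of calls that change. Single genes of the pathway lists are given from the fit of all 6 libraries only, and their calls may differ without it.

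Per transcript length, MAP2K2 was the most abundant of the 7 genes and BRAF the least. On the TPM scale (length-adjusted values as deposited, which allow levels of different genes to be set side by side), the control libraries gave 201 ± 18.1 for MAP2K2, 98.9 ± 12.8 for NRAS, 39.7 ± 3.93 for HRAS, 36.8 ± 1.08 for MAP2K1, 33.1 ± 2.35 for MAPK3, 29.8 ± 1.78 for ARAF and 11.6 ± 1.24 for BRAF (SD, n = 3). HRAS at 35.39 to 43.09 TPM and MAP2K1 at 35.98 to 38.05 TPM overlapped across the control libraries, while the other neighbours in that order had separate ranges. The gap between MAP2K1 and MAPK3 was small, since the highest MAPK3 value was 35.77 TPM. With HOTAIR-N siRNA, MAP2K1 took the sixth place in the order at 28.1 ± 0.905 TPM, below MAPK3 at 34.5 ± 1.78 and ARAF at 31.6 ± 0.743. The other genes kept their order, with 194 ± 20.8 TPM for MAP2K2, 76.1 ± 2.65 for NRAS, 45.9 ± 2.62 for HRAS and 12.6 ± 0.354 for BRAF.

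The comparison of the siRNAs asks how the RNA of each gene differed after HOTAIR-N siRNA. NRAS and MAP2K1 fell to 79.4% and 78.7% of their control levels, and HRAS and BRAF rose to 117% and 113%. ARAF, MAP2K2 and MAPK3 did not pass the test, at 110%, 99.6% and 110% of control. These 4 calls among 7 genes stand beside a background in which 57.5% of the 15072 tested genes passed (28.7% higher and 28.8% lower), so the share of members called was close to that of tested genes in general. CPM ranges of the groups did not overlap for 3 of the 7 members, against 62.9% of all tested genes. The changes were also of ordinary size: the absolute log2 fold change of MAP2K1 exceeded that of 56.8% of tested genes, that of NRAS 55.4%, HRAS 42.0%, BRAF 33.0% and MAP2K2 1.31%. Against a fold of 1.2 instead of no change, edgeR's test passed 0 of the 7 members, with 1 at an unadjusted p under 0.05, and 4775 of all genes.

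**Figure D1:**
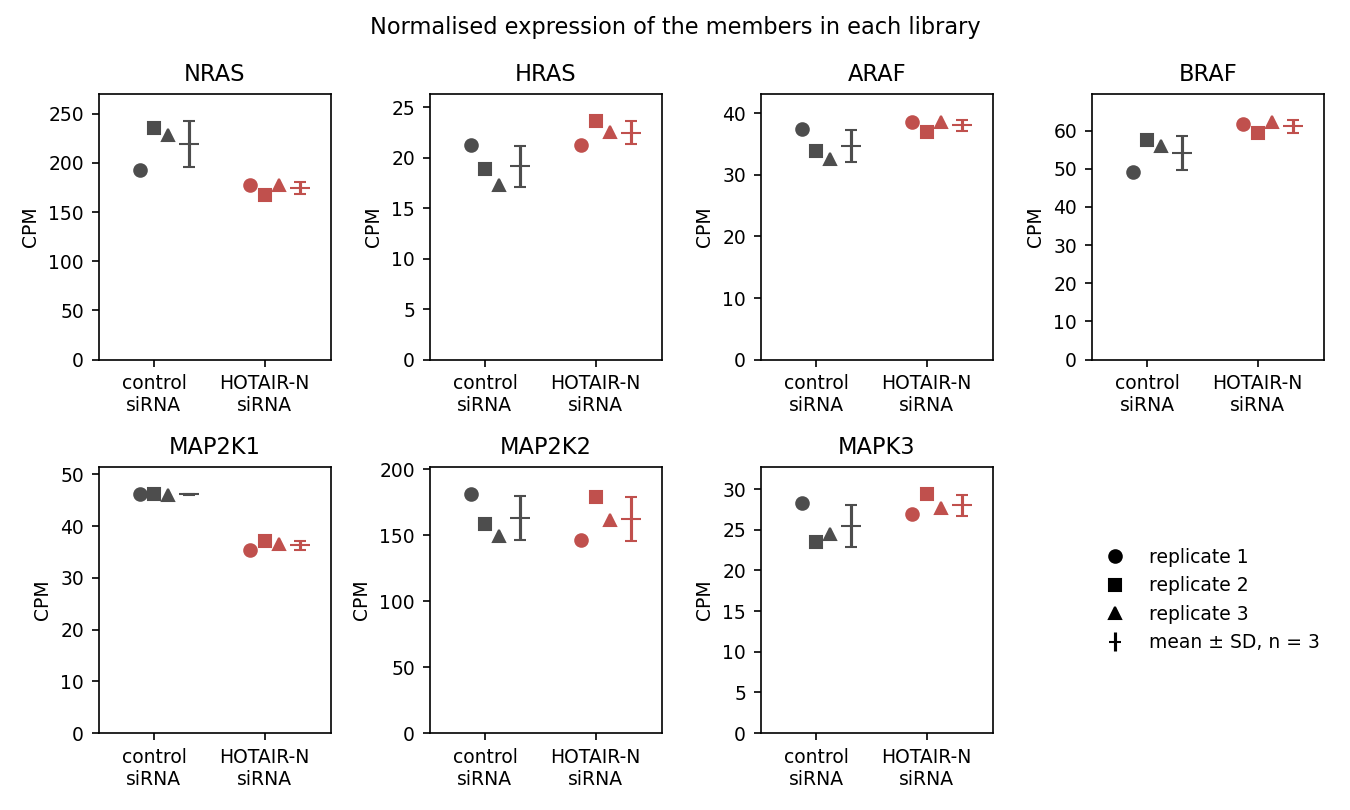
CPM of each of the 7 genes in each library, with control siRNA in grey and HOTAIR-N siRNA in red. Symbols mark the replicate numbers and bars the mean ± SD of 3 libraries, each axis starting at 0. NRAS and MAP2K1 are lower in all 3 HOTAIR-N siRNA libraries, BRAF is higher in all 3, and the groups overlap for HRAS, ARAF, MAP2K2 and MAPK3.

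NRAS and HRAS encode small GTPases that differ mainly in their C-terminal membrane-targeting region. NRAS was at 193, 235.9 and 228.9 CPM in control replicates 1 to 3 and at 177.2, 167.1 and 178.1 CPM in HOTAIR-N siRNA replicates 1 to 3. All HOTAIR-N siRNA libraries lay below all control libraries, and control replicate 1 was the lowest of the controls. The log2 fold change was -0.33 (SE 0.0693, 95% interval -0.48 to -0.18, edgeR quasi-likelihood test, adjusted p = 0.00082). Without control replicate 1 it was -0.41. In bulk RNA, less RNA per cell and fewer cells that carry the RNA cannot be told apart.

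HRAS was at 21.3, 18.9 and 17.3 CPM with control siRNA and at 21.3, 23.6 and 22.5 CPM with HOTAIR-N siRNA. Control replicate 1 and HOTAIR-N siRNA replicate 1 were nearly equal, and the other 2 HOTAIR-N siRNA libraries lay above every control. Its log2 fold change was 0.23 (SE 0.0832, 95% interval 0.05 to 0.41, edgeR adjusted p = 0.0271). It was 0.32 without control replicate 1 (edgeR adjusted p = 0.0013). The call ended when control replicate 2 (adjusted p = 0.0726), control replicate 3 (0.132), HOTAIR-N siRNA replicate 2 (0.106) or HOTAIR-N siRNA replicate 3 (0.0786) was left out of the edgeR fit. HRAS is among the most GC-rich of the members at 65.2% GC, NRAS is at 38.4%, and with each library's trend in GC content and length removed HRAS was at 0.04 (adjusted p = 0.518).

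A stretch of NRAS is shown because an earlier analysis of these libraries related 4 words of 7 bases to the fold changes. They are GACCAAT and the overlapping word ACCAATA, and TGAATAT with its overlapping partner GAATATA. The matches below lend that relation no independent support. The words were searched on the transcript strand only, in GENCODE release 29 transcripts matched by RefSeq name (14 of the 16 member isoforms). Of these, MAPK3 NM_001040056 and the non-coding BRAF NR_148928 had no 3′ UTR to search. The 3′ UTR of NRAS holds GAATATA and none of the other 3 words, and the word is printed in capitals, 5′ to 3′.
NRAS 3′ UTR: tgttttgccaaGAATATAgttattattgc
Among the 13092 tested genes with a 3′ UTR to search, 12.8% held GAATATA, 17.2% TGAATAT, 7.54% ACCAATA and 5.34% GACCAAT. Only matches in 3′ UTRs are given for the members, and the coding sequences are not described here. None of the 4 words was found in the 3′ UTRs of the 2 matched HRAS transcripts.

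ARAF and BRAF encode serine/threonine kinases that RAS recruits to the membrane, and BRAF has the higher basal kinase activity of the pair. BRAF was at 49.0, 57.4 and 55.9 CPM with control siRNA and at 61.8, 59.3 and 62.3 CPM with HOTAIR-N siRNA. The groups did not overlap, and control replicate 1 was again the lowest library. The log2 fold change of BRAF was 0.17 (SE 0.0674, 95% interval 0.03 to 0.32, edgeR adjusted p = 0.0377). The call ended without control replicate 1 (0.11, edgeR adjusted p = 0.068), and also without HOTAIR-N siRNA replicate 1 (0.085), 2 (0.0542) or 3 (0.117). With the GC and length trend removed it was 0.26 (adjusted p = 2.8e-06).

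ARAF was at 37.5, 33.9 and 32.5 CPM with control siRNA and at 38.6, 37.03 and 38.5 CPM with HOTAIR-N siRNA. The groups overlapped through control replicate 1 alone. ARAF had a log2 fold change of 0.14 (SE 0.0685, 95% interval -0.01 to 0.28, edgeR adjusted p = 0.104). Without control replicate 1, ARAF passed at 0.20 (adjusted p = 0.0064). The BRAF transcript NM_001354609 is AT-rich at 40.0% GC and the ARAF transcript NM_001654 is at 58.9% GC, while ARAF NM_001256197 is at 44.45%. The 3′ UTR of BRAF holds TGAATAT in NM_001354609, the isoform that made up most of the gene, and ACCAATA in NM_004333. The ACCAATA site starts at base 5498 of the matched GENCODE transcript of 6458 nt. The deposited length of NM_004333 is 4559 nt, and whether that model includes the site was not determined.
BRAF NM_001354609 3′ UTR: tgtacttgatgTGAATATgcgaatactgc
BRAF NM_004333 3′ UTR: ctaatagttaaACCAATAgttaaaattgt
None of the 4 words was found in the 3′ UTRs of the 3 ARAF transcripts.

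MAP2K1 and MAP2K2 encode the dual-specificity kinases that phosphorylate ERK. MAP2K1 was at 46.2, 46.1 and 46.1 CPM with control siRNA and at 35.3, 37.1 and 36.5 CPM with HOTAIR-N siRNA. The control libraries were nearly identical, control replicate 1 included, and all 3 HOTAIR-N siRNA libraries lay below them. For MAP2K1 the log2 fold change was -0.34 (SE 0.0594, 95% interval -0.47 to -0.22, edgeR adjusted p = 0.00016). It ranged from -0.36 to -0.33 when any 1 library was left out, and was -0.28 with the GC and length trend removed.

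MAP2K2 was at 181.5, 158.4 and 149.0 CPM with control siRNA and at 146.2, 178.9 and 161.6 CPM with HOTAIR-N siRNA. Libraries of each group were spread over the same range, and the highest and the lowest came from different groups. The log2 fold change was -0.0063 (SE 0.0795, 95% interval -0.18 to 0.16, edgeR adjusted p = 0.952). The interval does not show that MAP2K2 was unaffected: at 65.5% GC it is the most GC-rich member, and with the GC and length trend removed it passed at -0.19 (adjusted p = 9.4e-05). That adjustment also removes any difference between the groups that follows GC content or length. Counts of MAP2K1 and MAP2K2 were not whole numbers in any of the 6 libraries, so some of their reads were divided with other rows of the tables, whereas the other 5 members had whole counts throughout.

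Within MAP2K1, the word ACCAATA lies in the 3′ UTR, at base 3017 of the matched GENCODE transcript of 3410 nt. The deposited tables give the same isoform a length of 2586 nt, and whether that model includes the site was not determined. The word was present in 7.54% of the 3′ UTRs searched.
MAP2K1 3′ UTR: attttccatatACCAATAgttgagctgag
The 3′ UTRs of MAP2K2 and of MAPK3 NM_001109891 and NM_002746 held none of the 4 words. MAPK3 NM_001040056 had no 3′ UTR to search.

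MAPK3 encodes ERK1, which MEK activates by phosphorylation of a threonine and a tyrosine. It was at 28.3, 23.5 and 24.5 CPM with control siRNA and at 27.0, 29.4 and 27.6 CPM with HOTAIR-N siRNA. Control replicate 1 lay within the HOTAIR-N siRNA range and the other 2 controls below it. The log2 fold change was 0.14 (SE 0.0786, 95% interval -0.03 to 0.31, edgeR adjusted p = 0.146). Without control replicate 1, MAPK3 passed at 0.23 (adjusted p = 0.0066), and with the GC and length trend removed it was at 0.02 (adjusted p = 0.788). Its GC content is 61.8%.

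Leaving out control replicate 1 gave 5 calls among the 7 members: NRAS and MAP2K1 lower, and HRAS, ARAF and MAPK3 higher. In that fit, 9234 of 15276 tested genes passed. Removal of the GC and length trend gave 4 calls, with NRAS, MAP2K1 and MAP2K2 lower and BRAF higher, beside 9972 of 14826 tested genes. NRAS and MAP2K1 thus fell in both fits, while which of the other members passed differed between the fits. The trend was fitted to each library's deviation from the mean of all 6 libraries. At HRAS, ARAF, MAP2K2 and MAPK3 it was 0.05 to 0.06 on the log2 scale in the first control library. In the other 2 control libraries the trend at these genes was -0.18 to -0.07. In HOTAIR-N siRNA replicates 1, 2 and 3 it was -0.02 to 0.01, 0.08 to 0.17 and 0.05 to 0.11.

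**Figure D2:**
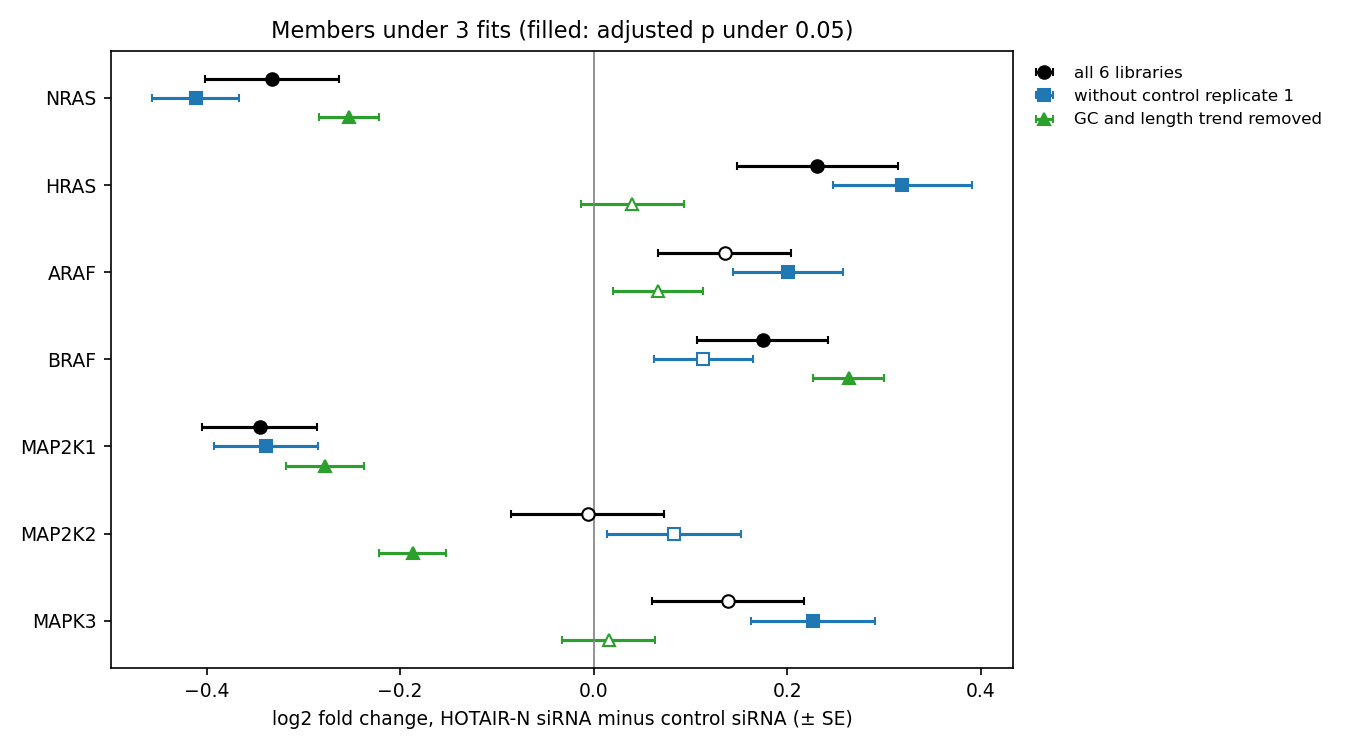
Log2 fold changes ± SE of the 7 genes in 3 fits: all 6 libraries, without control replicate 1, and with each library's GC and length trend removed. Filled symbols passed an adjusted p of 0.05. NRAS and MAP2K1 are below 0 and filled in all 3, BRAF is above 0 in all 3, and MAP2K2 moves from -0.0063 to -0.19 with the trend removed.

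Within the pairs of related genes, the balance was compared on the TPM scale. NRAS made up 66.3%, 73.0% and 74.3% of the summed TPM of NRAS and HRAS with control siRNA and 63.9%, 60.2% and 63.1% with HOTAIR-N siRNA. All HOTAIR-N siRNA libraries lay below all controls, and the log2 ratio of NRAS to HRAS was lower by 0.58 (log2 difference -0.58, two-sided exact permutation test, p = 0.1, the smallest that 3 against 3 allows). MAP2K2 made up 85.9%, 84.2% and 83.3% of the MEK pair in the controls and 86.5%, 88.2% and 87.2% with HOTAIR-N siRNA, again without overlap (log2 difference 0.34, exact permutation p = 0.1). BRAF made up 28.1% ± 2.78 of the BRAF and ARAF sum with control siRNA and 28.4% ± 0.429 with HOTAIR-N siRNA (SD, n = 3), and the ranges overlapped (exact permutation p = 1). These 3 ratios rest on the same values as the gene test and were not adjusted for GC content, which differs within each pair. In the gene test with the GC and length trend removed, NRAS was at -0.25 and HRAS at 0.04 on the log2 scale. In that fit MAP2K2 was at -0.19 and MAP2K1 at -0.28, and BRAF was at 0.26 and ARAF at 0.07. How far the ratios follow GC content was not tested. With a smallest p of 0.1 the exact test cannot pass 0.05, adjusted over the 3 pairs or not.

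The tables list 1 isoform each for NRAS, MAP2K1 and MAP2K2, 3 each for ARAF, BRAF and MAPK3, and 4 for HRAS, under their RefSeq names. Of the 16 isoforms, 2 passed the isoform test, against 19.5% of the 32627 isoforms tested. HRAS NM_005343 rose with a log2 fold change of 0.51 (SE 0.0877, edgeR adjusted p = 0.0132). MAP2K1 NM_002755 fell with a log2 fold change of -0.33 (SE 0.0436, edgeR adjusted p = 0.00545). NRAS NM_002524, the only listed NRAS isoform, was at -0.32 and missed the threshold (adjusted p = 0.0507); the gene, with the same counts, passed the gene test. Without control replicate 1, the NRAS isoform passed (-0.42, adjusted p = 0.0065), as did ARAF NM_001654 (0.23, adjusted p = 0.0468).

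HRAS was the member whose isoform shares differed most between the groups. NM_005343 made up 61.18%, 69.95% and 70.3% of the gene in the control libraries and 81.27%, 80.76% and 74.97% with HOTAIR-N siRNA. All HOTAIR-N siRNA libraries lay above the controls, a difference of 11.9 percentage points (exact permutation p = 0.1, the smallest possible). The other 3 HRAS isoforms overlapped between the groups: NM_001130442 went from 19.1% ± 7.65 to 12.3% ± 1.38, NM_176795, which encodes a shorter protein with another C-terminus, from 8.93% ± 6.95 to 4.30% ± 1.91, and NM_001318054 from 4.88% ± 5.74 to 4.38% ± 1.45 (SD, n = 3). These minor isoforms rest on 0 to 205.6 expected counts in a library and varied widely among the controls.

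In BRAF, NM_001354609 made up 87.86%, 88.87% and 88.95% of the gene with control siRNA and 93.14%, 89.97% and 90.19% with HOTAIR-N siRNA. The groups did not overlap (exact permutation p = 0.1), and the log2 fold change of the isoform was 0.21 (edgeR adjusted p = 0.12). BRAF NM_004333 held 6.58% ± 0.817 and 3.93% ± 3.03, where HOTAIR-N siRNA replicate 1 alone was at 0.6%, and the non-coding NR_148928 held 4.86% ± 1.34 and 4.96% ± 1.39 (SD, n = 3). ARAF consisted mostly of NM_001654, at 91.1% ± 3.13 with control siRNA and 92.7% ± 0.555 with HOTAIR-N siRNA, and its 2 other isoforms overlapped between the groups.

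MAPK3 was the member with the most even split among isoforms. NM_002746 made up 56.7% ± 0.748 with control siRNA and 59.1% ± 4.23 with HOTAIR-N siRNA, NM_001040056 made up 28.9% ± 1.36 and 23.5% ± 3.65, and NM_001109891 made up 14.5% ± 0.71 and 17.4% ± 2.02 (SD, n = 3). The ranges of NM_001040056 (27.77% to 30.39% against 19.55% to 26.7%) and of NM_001109891 (13.66% to 14.97% against 15.9% to 19.69%) did not overlap (exact permutation p = 0.1 for each). Shares within a gene depend on each other, since together they make up the whole gene. How often the shares of isoforms in general separate by group was not determined. The separated ranges in HRAS, BRAF and MAPK3 therefore have no background beside them and are description only. No MAPK3 isoform passed the isoform test, with adjusted p from 0.236 to 0.611.

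Whether the isoforms of a gene changed unequally was asked with diffSpliceDGE in edgeR, which passed 4.13% of the 7523 genes with several tested isoforms and 0 of the 4 members among them. The Simes p was 0.497 for HRAS, 0.97 for BRAF, 0.92 for ARAF and 0.926 for MAPK3, none under an unadjusted 0.05, and a gene-level F test passed none of them either. The shares of HRAS therefore differed without overlap in 1 isoform while the test of use did not pass, and its minor isoforms spread widely among the control libraries.

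**Figure D3:**
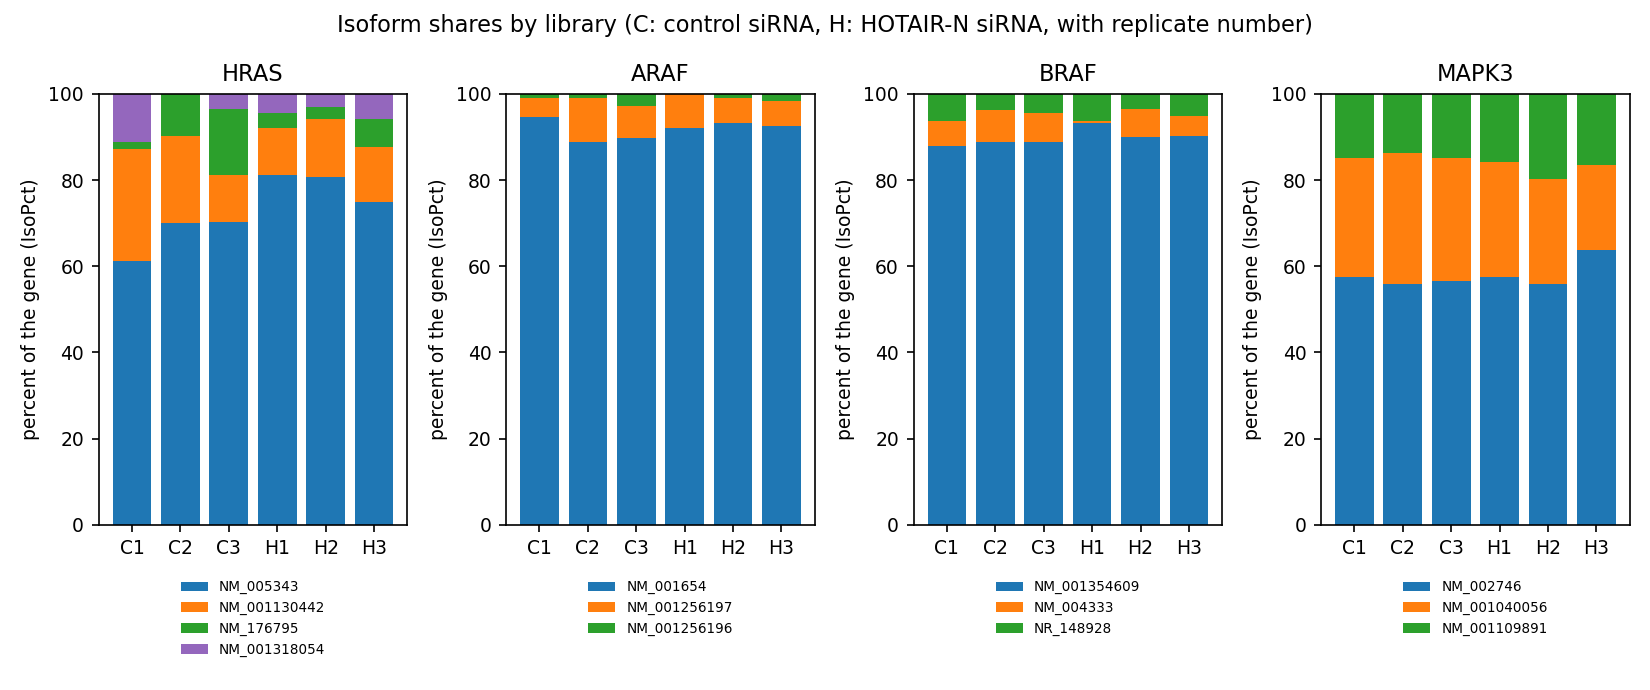
Percent of the gene that each listed isoform makes up in each library (C1 to C3 control siRNA, H1 to H3 HOTAIR-N siRNA), stacked to 100%. The HRAS isoform NM_005343 is at 61.18% to 70.3% in the control bars and 74.97% to 81.27% in the others, and BRAF and ARAF consist mostly of 1 isoform in every library.

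Other genes of the pathway were taken from 9 lists of known components, drawn up with earlier results of these data known. Their counts stand beside the 28.7% of all tested genes that rose and the 28.8% that fell (57.5% called), and no list was tested as a set. Upstream of RAS, the adaptors that link receptors to exchange factors had no called increase: of 11 tested, 0 rose, 5 fell and 6 did not pass, with a median log2 fold change of -0.24 against 0.0061 over all tested genes. CRK fell from 195.9 ± 3.98 to 85.7 ± 0.897 CPM (SD, n = 3, log2 -1.19, edgeR adjusted p = 1.8e-10). GRB2, the adaptor that carries SOS to receptors, fell from 156.2 ± 3.19 to 108.3 ± 1.4 CPM (-0.53). The phosphatase PTPN11 (SHP2), which promotes RAS activation, fell by 0.48 and CRKL by 0.24 on the log2 scale.

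Among the exchange factors, which load GTPases with GTP, 0 of 7 tested rose, 3 fell and 4 did not pass (median -0.14). RAPGEF1, which acts on RAP GTPases, fell from 87.6 ± 4.1 to 56.3 ± 3.54 CPM (-0.64), RAPGEF2 fell by 0.20 on the log2 scale, and RASGRF2 fell by 1.94 from a level of 1.29 CPM. RASGRP1 was at 0.46 and did not pass (adjusted p = 0.0739). SOS1 at 0.07 (edgeR adjusted p = 0.329) and SOS2 at -0.14 (edgeR adjusted p = 0.0845) did not pass either. When control replicate 1 was left out, 4 exchange factors fell and 0 rose, and with the GC and length trend removed 2 rose and 2 fell. GTPase-activating proteins, which switch RAS off, moved both ways, with 4 of 9 higher, 4 lower and 1 not passing (88.9% called, median -0.10). Leaving out control replicate 1 gave 4 higher and 5 lower. RASA2 rose from 29.9 ± 3.36 to 49.3 ± 1.22 CPM (0.72), RASA1 fell from 60.4 ± 4.11 to 38.0 ± 3.65 CPM (-0.67) and RASAL1 rose by 1.17 from 0.946 CPM.

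Of 15 tested other GTPases of the RAS family, 4 rose, 4 fell and 7 did not pass (53.3% called, median 0.09). With control replicate 1 left out, 4 rose and 6 fell (median 0.03). MRAS, which with SHOC2 promotes RAF activation, fell from 27.7 ± 0.887 to 11.7 ± 0.459 CPM (-1.24). RAP2B (-0.79), RHEB, the activator of mTORC1 (-0.63), and RALA, a GTPase of the RAL branch (-0.67), also fell. Of 13 genes for the lipid modification and trafficking of RAS, 4 rose, 4 fell and 5 did not pass (median 0.04). PDE6D, a carrier of prenylated RAS proteins, fell from 27.9 ± 0.753 to 11.2 ± 0.248 CPM (-1.32), and FNTB, a farnesyltransferase subunit (-0.66), and the methyltransferase ICMT (-0.36) fell, while the thioesterase LYPLA2 rose (0.65).

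Of 23 tested scaffolds and regulators of RAF, MEK and ERK, 3 rose, 10 fell and 10 did not pass (median -0.13), and the 56.5% called is close to the 57.5% of all tested genes. IQGAP1, a scaffold that binds RAF, MEK and ERK, fell from 442.4 ± 26.9 to 273.4 ± 2.24 CPM (-0.69). ERBIN (-0.89), PEA15, which holds ERK in the cytoplasm (-0.42), and the 14-3-3 protein gene YWHAH (-0.40) fell as well. With the GC and length trend removed, 7 rose and 13 fell. Of 17 other MAP kinase kinases and MAP kinases, 5 rose, 9 fell and 3 did not pass (82.4% called, median -0.18). NLK fell from 31.1 ± 2.05 to 12.1 ± 0.639 CPM (-1.36), MAP2K6 (-1.02) and MAP2K5 (-0.45) fell, MAPK10 fell by 2.96 from a low level of 1.09 CPM, and MAPK11 (1.01), MAP2K3 (0.21) and MAP2K7 (0.23) rose. MAP2K4 was at 0.14 and did not pass (adjusted p = 0.0852).

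Downstream of ERK, 3 of 8 kinases rose, 1 fell and 4 did not pass (median 0.13), and without control replicate 1 there were 4 higher and 2 lower. RPS6KA6 rose from 18.1 ± 2.93 to 33.1 ± 1.53 CPM (0.87), RPS6KA1 (0.40) and MKNK2 (0.36) rose, and RPS6KA4 fell (-0.25). Genes that are commonly used as transcriptional readouts of ERK activity were higher in 7 of 10 cases, lower in 1 and not passing in 2 (median 0.34), beside 28.7% higher and 28.8% lower among all tested genes. The feedback inhibitor SPRY4 rose from 101.1 ± 2.25 to 170.8 ± 2.3 CPM (0.76, edgeR adjusted p = 1.5e-08). DUSP6, a phosphatase of ERK, rose from 84.8 ± 1.2 to 139.4 ± 7.13 CPM (0.72), and DUSP4 rose from 83.8 ± 2.1 to 119.3 ± 2.64 CPM (0.51). The transcription factor gene ETV5 fell from 62.7 ± 2.89 to 37.7 ± 2.14 CPM (-0.73). Without control replicate 1 the readout genes again gave 7 higher and 1 lower, and with the GC and length trend removed 8 higher and 2 lower. The libraries hold no measure of ERK phosphorylation.

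**Figure D4:**
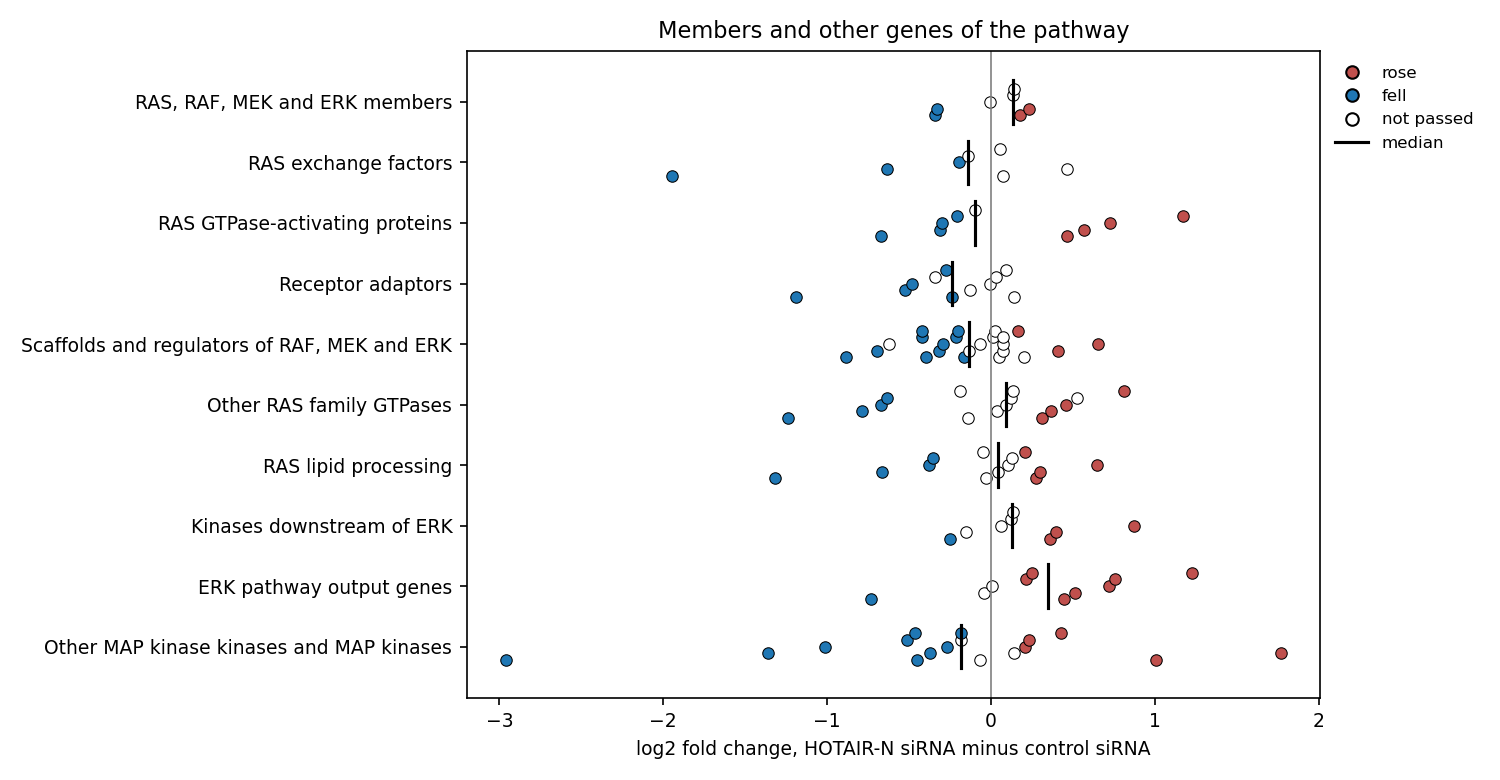
Log2 fold changes of the 7 members and of each tested gene of the 9 pathway lists, with 1 point per gene coloured by the edgeR call and a bar at each median. Members lie between -0.34 and 0.23, and the readout genes of ERK have the highest median at 0.34.

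For each member, the tested genes whose log2 CPM followed it most closely over the 6 libraries were listed from 9869 genes, as a description in which the points share the 2 groups. ACTR2 (r = 0.999) and SNTB2 (r = 0.999) were most like NRAS, and GIGYF1 (r = 0.995) and BICDL1 (r = 0.995) most like HRAS. PER2 (r = 0.982) and TMEM208 (r = 0.98) followed ARAF, and MAP2K4 (r = 0.997) and FAM98B (r = 0.997) followed BRAF. RAP1GAP2 and CTNNBIP1 followed MAP2K1 (r = 0.999 for both), with log2 fold changes of -0.72 and -0.67. CENPB (r = 0.994) and APRT (r = 0.989) followed MAP2K2, and DDX39A (r = 0.996) and ARF5 (r = 0.995) followed MAPK3. Each r rests on 6 libraries and was the highest or next highest of all genes searched.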

How the data were processed

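Total RNA libraries were made with a ribosomal RNA depletion kit that keeps strand, per the labels' protocols. STAR 2.6.0c, RSEM 1.3.0 and hg19 appear in the submitters' processing notes. The annotation release and the strand setting of the counting were not given in the sources used here. The authors deposited 1 gene table and 1 isoform table per library with expected counts (RSEM's estimates, per the file headers), in which a read matching several transcripts is shared among them. Per the file headers the same tables hold TPM and FPKM (deposited, length-adjusted and scaled within a library) and, for isoforms, the percent of the gene (IsoPct, deposited).

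Rounded expected counts went into edgeR 4.0.16 under R 4.3.3 (filterByExpr by group, TMM scaling, robust quasi-likelihood fit, siRNA as the only term). Adjusted p-values are Benjamini-Hochberg values over all genes or all isoforms tested, and 0.05 was the threshold. A positive log2 fold change means more RNA with HOTAIR-N siRNA. TPM and IsoPct are used as deposited, FPKM is not printed, and the exact permutation tests are two-sided. Alternatives were RLE or no scaling, no filter or a mean CPM of at least 1, DESeq2 1.42.0, limma-voom (limma 3.58.1), a test against a fold of 1.2, the replicate number as a block and each library left out. Removal of each library's trend in GC content and length was added after the data were seen. The GC content given for a member gene is that of a single transcript, its most abundant isoform matched by RefSeq name. Steps were tested on simulated data. There, isoforms with very large spread between replicates gave false calls of isoform use, so the count of genes called for it may be too high.

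The members, pathway lists and words were chosen with earlier results of these data known. The named genes are the members and their isoforms, up to 4 genes of each list, by smallest p, and any of MAP2K3 to MAP2K7. SOS1 and SOS2 were named in addition. Also named are the 2 genes most alike to each member among genes whose mean log2 CPM reached 3. Some genes and sequences are not reported here. Libraries of equal replicate number were not more alike than others (correlations of deviations of -0.12 to 0.02 for equal numbers and -0.14 to 0.17 for unequal ones). Whether the transfections were done in matched sets cannot be told from these few values.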

Additional observations from a re-analysis of the deposited data

How the results depend on the processing

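NRAS and MAP2K1 fell in every alternative and passed in all but the test against a fold of 1.2 (edgeR adjusted p = 0.151 and 0.0846). That test called 0 members, with 1 at an unadjusted p under 0.05, and 4775 genes in all. With 1 library left out, 2 to 5 members passed, as did 7503 to 9234 genes in all. The log2 fold change of MAP2K2 turned positive with no scaling (0.0153) and with a mean CPM of at least 1 (0.0041), and ran from -0.0807 to 0.0832 with 1 library left out. For its isoform NM_030662 it was -0.0044 with RLE scaling, -0.0037 without a filter and -0.0062 with DESeq2, and -0.0745 to 0.0766 with 1 library left out. ARAF NM_001256197 ran from -0.27 to 0.28 and HRAS NM_001318054 from -0.56 to 1.76 in the latter fits. None of these 4 passed a test there, and the causes of the sign changes were not tested.

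With the replicate number as a block, BRAF did not pass (edgeR adjusted p = 0.0728), ARAF NM_001256197 was at 0.0121, and 0 member isoforms passed, with 3 at an unadjusted p under 0.05. The block left 2012 isoforms and 141 genes for isoform use. DESeq2 called 9850 isoforms and 3 of the members', and a gene-level F test called 795 genes for isoform use. With 1 library left out, 2 to 4 member isoforms passed, as did 3551 to 5647 isoforms and 186 to 251 genes for isoform use in all, where fewer libraries were fitted. Expected counts carry an error of dividing shared reads that the tables do not state, which bears most on the minor isoforms and on MAP2K1 and MAP2K2.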
